A study of Mus musculus with 18 samples.

Results

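The p53 pathway was followed across 3 blood-forming cell populations of mice with and without Ptbp1, an RNA-binding protein that represses or promotes the use of alternative exons. A list of 31 named genes was used, matched by symbol to 53458 genes of the annotation: Trp53 and its partners Mdm2 and Mdm4, and 28 genes known as targets or helpers of p53. Of these, 30 passed the minimum-count filter. Gdf15, a secreted stress factor, had 0 to 14 reads per library and was not tested. The 6 groups were Ptbp1 fl/fl (written WT) and Ptbp1 KO, each in haematopoietic stem cells (HSC), preMegE and preCFU-E, with 3 biological replicates per group. All came from bone marrow of C57BL/6 mice, and their total RNA was amplified as cDNA before sequencing. HSC were the CD150+ and CD48- fraction of Lin-, Sca-1+ and c-kit+ cells. Both progenitors were Lin-, Sca-1- and c-kit+, negative for CD41 and FcgRII/III and positive for CD150. PreMegE, which can form megakaryocytes and red cells, lacked CD105, and preCFU-E, a step closer to red cells, carried it. The labels give neither the Cre driver nor the age or sex of the animals, and the controls are described by the floxed allele alone.

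The protein p53 is a transcription factor that is made continuously and destroyed quickly. Mdm2 marks it for degradation, Mdm4 binds and blocks it, and Mdm2 is itself a p53 target, so the loop limits its own activity. When DNA is damaged, or when ribosome assembly is disturbed and free ribosomal proteins bind Mdm2, p53 accumulates and raises targets that stop the cell cycle (Cdkn1a, which codes for the inhibitor p21), start cell death (Bbc3, Pmaip1, Fas) or aid repair. In blood, p53 limits the division of stem cells, and erythroid progenitors with defective ribosomes are known to respond through it. p53 is controlled largely as a protein, so its own mRNA level does not report its activity.

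The sequence element through which p53 acts is a pair of 10-base sequences called decamers here. RefSeq promoters (GRCm38.p6, 250 bases before to 50 after each start) were found for 23 members, 31 promoters in all, and both strands were searched for the p53 decamer, whose sequence is its own reverse complement. A decamer lay in 9 of the 31 promoters (29.0%), against 8.36% of all 32851 promoters in the table. They held 9 separate decamers in 8 genes, since the 2 windows of Aen overlap and share one. A full site, 2 decamers at most 13 bases apart, lay in 0.0731% of all promoters and in 1 promoter of a member, the upstream start of Cdkn1a. The windows below are those of the members whose levels or transcripts the results turn on, on the strand of the gene, with the decamers in capitals. A match is a description of the letters and not a measured binding site.
Cdkn1a, chr17:29090886-29090957, plus strand, decamers beginning 73 and 51 bases before the upstream start: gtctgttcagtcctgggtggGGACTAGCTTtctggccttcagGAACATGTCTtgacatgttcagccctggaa
Trp53, chr11:69580264-69580313, plus strand, decamer beginning 75 bases before the start: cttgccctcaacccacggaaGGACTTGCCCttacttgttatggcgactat
Mdm2, chr10:117710915-117710964, minus strand, decamer beginning 186 bases before the start: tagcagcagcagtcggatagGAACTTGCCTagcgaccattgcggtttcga
Ccng1, chr11:40755442-40755491, minus strand, decamer beginning 185 bases before the start: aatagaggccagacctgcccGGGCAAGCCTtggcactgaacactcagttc
Aen, chr7:78895917-78895966, plus strand, decamer beginning 121 bases before the second of its starts: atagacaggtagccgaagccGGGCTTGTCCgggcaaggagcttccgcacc
The remaining decamers lay in promoters of Ei24, Polk and Sesn1. No decamer was found in the 300-base window of Phlda3, which says only that these letters are not in that window.

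Library totals ran from 15956408 to 29226287 estimated reads. Levels between libraries are given as CPM, read counts scaled by library size with TMM factors, and levels between genes as TPM, which also account for transcript length. Ptbp1, the targeted gene, stood at 196 to 221 CPM in HSC WT and 90.3 to 108 in HSC KO, at 595 to 787 and 187 to 232 in preMegE, and at 1120 to 1340 and 298 to 318 in preCFU-E, so KO lay below WT in each population (edgeR quasi-likelihood test, log2 -1.09, -1.77 and -2.02, adjusted p 0.000211, 1.2e-07 and 5.51e-09). The populations carried their markers: 10 HSC genes summed to 856 to 1270 CPM in HSC libraries and to 105 to 154 in progenitors, and 12 erythroid genes to 8810 to 11300 CPM in preCFU-E against 1820 to 2280 in preMegE. Xist, transcribed in female cells, stood at 6430 to 8620 CPM in the 6 HSC libraries and at or below 1.09 CPM in the 12 progenitor libraries, while the Y-linked Eif2s3y showed the reverse. Sex and population therefore cannot be told apart wherever HSC are set against progenitors. Replicates spread most in HSC, with a biological coefficient of variation of 0.474, against 0.238 in preMegE and 0.127 in preCFU-E. The main test uses 1 estimate of spread for all groups. On simulated data with each population's own spread it made more false calls between the HSC groups than its threshold allows, so the adjusted p of an HSC call is too small. Member calls of the main tests in HSC KO are therefore given with an HSC-only fit, made on those 6 libraries. These are Phlda3, Dcxr and the transcript shares of Ei24. For gene levels the HSC-only fit called 5 genes in all between HSC KO and WT, against 182 in the main test. Other HSC KO calls, such as Ptbp1, Cxcl12 and those with a library left out, carry no HSC-only value. They are read with the same limit. The same estimate of spread enters the comparisons of HSC with progenitors. The simulations did not cover these, and their adjusted p are read with that limit.

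Loss of Ptbp1 went with few called changes in these genes. In HSC, Phlda3, whose product restrains Akt, was called higher and Dcxr, a carbonyl reductase, lower. Called here means an adjusted p below 0.05 over 21565 genes. Of all genes 0.385% were called higher and 0.459% lower in HSC KO, and 1 of 30 members in each direction. In preMegE KO and in preCFU-E KO no member was called, where 0.0603% and 0.153% of all genes were called in either direction. DESeq2, limma voom and the fit of the compared libraries alone also called none there. In preMegE KO these 3 fits called 59, 13 and 36 genes in all, against 13 in the main test. In preCFU-E KO they called 77, 18 and 252, against 33. The main test's estimate of spread is shared with HSC, whose replicates spread more than those of either progenitor. At an unadjusted p below 0.05, 6 members passed in HSC (13.7% of all genes), 3 in preMegE (4.92%) and 2 in preCFU-E (3.68%), the last 5 all on the higher side.

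Between KO and WT, the median log2 difference of the 30 members was -0.06 for HSC, 0.08 for preMegE and 0.17 for preCFU-E, beside medians over all genes of 0.01, 0.01 and 0.00. The fitted value was positive for 12 members in HSC, for 20 in preMegE and for 23 in preCFU-E, beside 51%, 51.3% and 47.8% of all genes. Library by library, all 3 KO values lay above all 3 WT values for 1 member in HSC (5.8% of all genes), 6 in preMegE (6.02%) and 4 in preCFU-E (6.62%). The reverse held for 2 members in HSC (6.31% of all genes), none in preMegE (6.24%) and 4 in preCFU-E (7.41%). The count above WT in preMegE, 6 of 30, was the furthest from the share of all genes, and no test over the list was made. In bulk RNA, fewer cells of a type and less RNA per cell cannot be told apart.

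**Figure D1:**
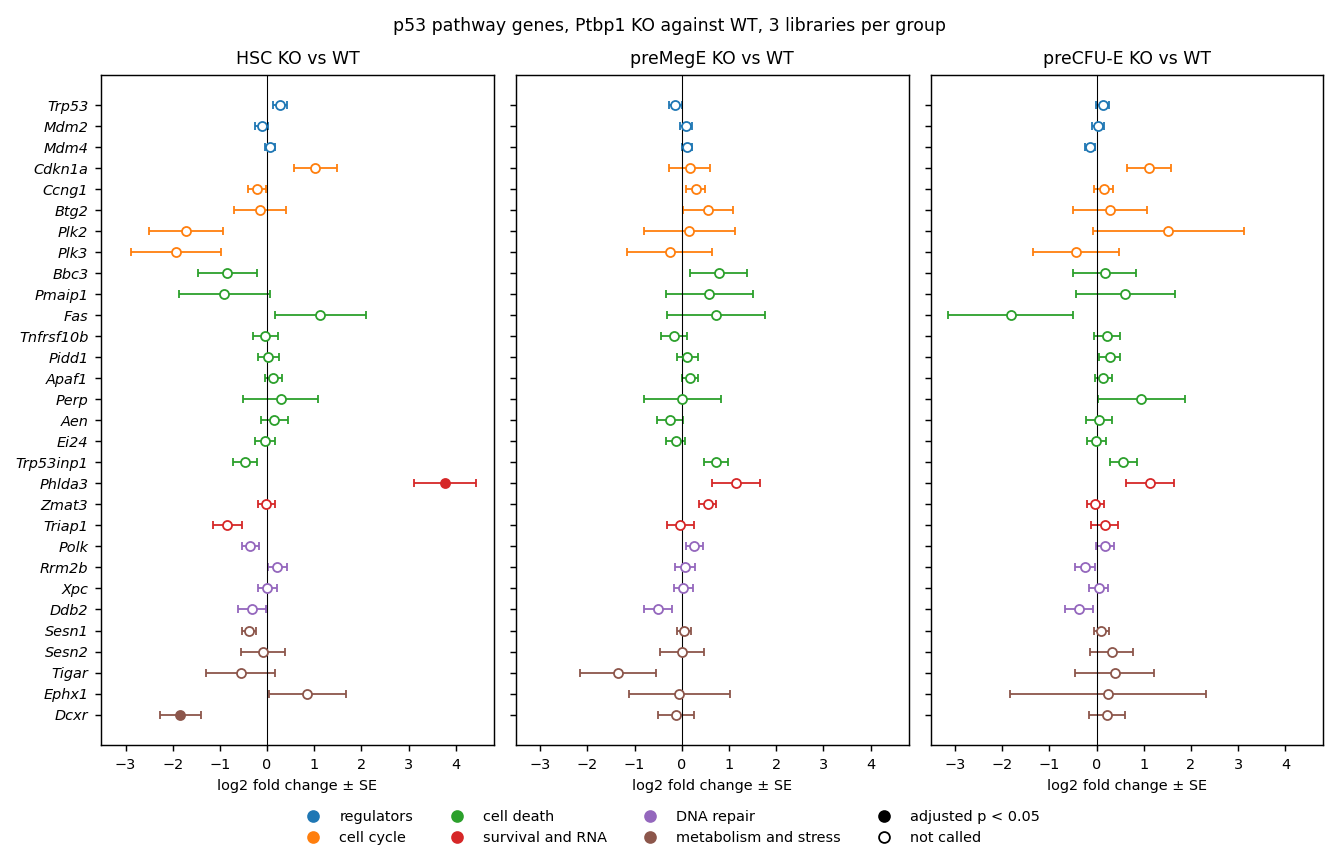
Log2 fold change between Ptbp1 KO and WT (x axis, with SE) for the 30 tested p53 pathway genes (y axis, coloured by role) in HSC, preMegE and preCFU-E, 3 libraries per group. Filled points passed an adjusted p of 0.05: Phlda3 and Dcxr in HSC, and no gene in either progenitor.

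The change between populations was broader than the change between genotypes. From WT HSC to WT preMegE 15 members rose and 6 fell, beside 25.5% and 28.2% of all genes, and the members' median log2 difference was 0.48 where that of all genes was -0.43. From WT preMegE to WT preCFU-E 5 rose and 4 fell, beside 15.6% and 11.2% of all genes, with medians of -0.22 and -0.18. Counted on protein-coding transcripts alone, 9 rose and 7 fell at the first step, beside 24.7% and 25.2% of all 14072 genes then tested, and 2 rose and 7 fell at the second, beside 13.7% and 15.9%. That count moved the genes shared with the main test by a median of -0.452 on the log2 scale at the first step and -0.225 at the second, and a member's change there reads against that shift. Scaling counts for transcript length moved the first step by a median of 0.173, and there 13 members rose and 4 fell beside 23% and 21.5% of all genes. With 1 weight per population, limma voom called 14 members higher and 6 lower at the first step, beside 23.6% and 26.4% of all genes. At the second step the fit of the compared libraries alone, which tested 27 members, called 5 higher and 9 lower, beside 25.3% and 19.6% of all genes. Limma voom with 1 weight per population called 7 higher and 8 lower there, beside 21.9% and 15.7%. Both fits and the protein-coding count added Apaf1, Polk and Sesn1 to the members lower at that step. The effect of the knockout was also compared between populations. No member differed in preMegE against HSC, preCFU-E against preMegE or preCFU-E against HSC, where 0.0325%, 0% and 0.051% of all genes were called. At an unadjusted p below 0.05, 6, 1 and 5 members passed in those 3 comparisons, beside 8.15%, 2.62% and 7.92% of all genes. DESeq2 called Dcxr in the last, where it called 122 genes in all against 11 in the main test.

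**Figure D2:**
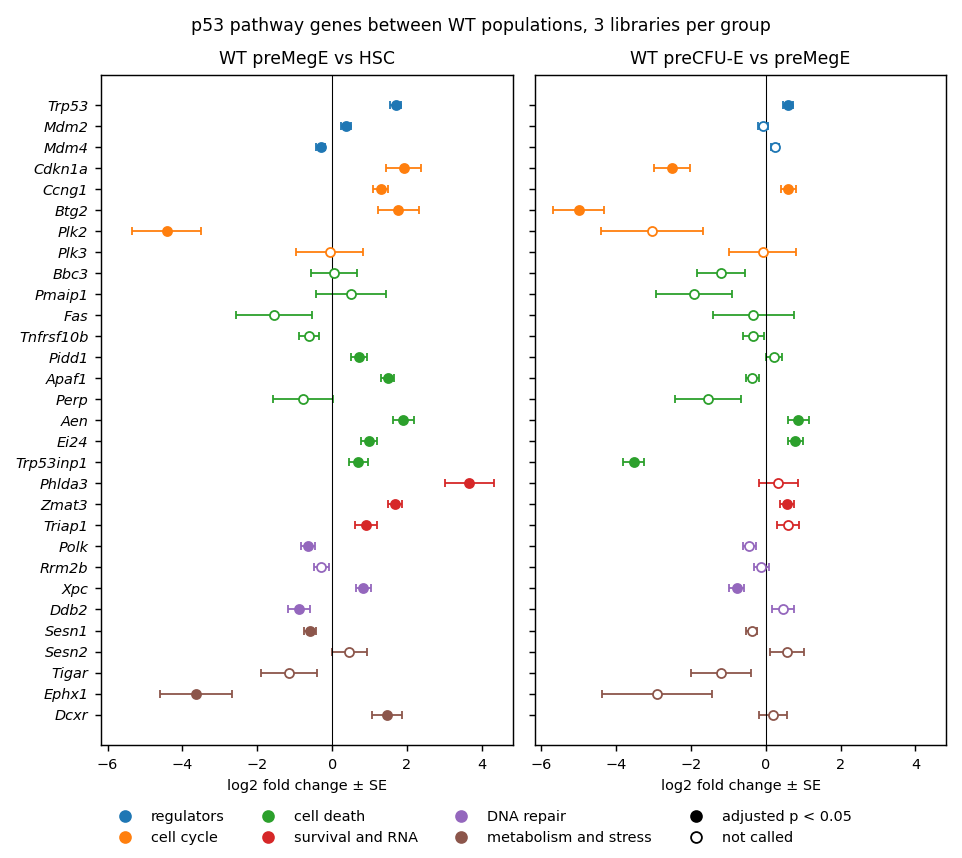
Log2 fold change (x axis, with SE) of the 30 tested genes (y axis, coloured by role) from WT HSC to WT preMegE and from WT preMegE to WT preCFU-E, 3 libraries per group. Filled points passed an adjusted p of 0.05. Trp53, Ccng1, Aen, Ei24 and Zmat3 lie to the right of 0 in both panels, and the filled points of Cdkn1a, Btg2, Trp53inp1 and Xpc change side.

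The regulators were the most abundant members per length in HSC WT. There Trp53 stood at 114 ± 10.2 TPM (SD, n = 3), Mdm4 at 103 ± 3.83 and Mdm2 at 37.8 ± 10.7. In preCFU-E WT the same genes stood at 342 ± 35.2, 44.5 ± 8.19 and 26.3 ± 0.816 TPM. By these gene totals Trp53 and Mdm4 stood at similar levels in stem cells and far apart in preCFU-E. In preCFU-E WT, Ccng1 (75.7 ± 11.1 TPM) ranked between them. The Mdm4 totals include transcripts annotated as retaining an intron. Of these, Mdm4-211, Mdm4-204 and Mdm4-205 held mean shares of 22.5%, 14.2% and 9.94% in HSC WT. In preCFU-E WT they held 9.31%, 9.16% and 3.62%. The protein-coding Mdm4-210 held 32.3, 30.7 and 36.7 TPM in HSC WT and 23, 25.1 and 24.3 in preCFU-E WT.

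Trp53 rose at both WT steps. It was measured at 137, 139 and 121 CPM in HSC WT, 395, 418 and 471 in preMegE WT, and 580, 626 and 731 in preCFU-E WT. No library of 1 population reached those of the next. The log2 change was 1.70 (SE 0.14, adjusted p = 7.23e-09) at the first step and 0.59 (SE 0.14, adjusted p = 0.00257) at the second. In KO libraries it was at 175, 129 and 176 CPM in HSC, 347, 367 and 451 in preMegE, and 677, 684 and 761 in preCFU-E, overlapping WT in each population. The KO differences were 0.28 (SE 0.14), -0.14 (SE 0.14) and 0.13 (SE 0.14) on the log2 scale, with adjusted p of 0.397, 1 and 1. The knockout effect on Trp53 in preMegE minus that in HSC was -0.415 (unadjusted p = 0.0475, adjusted p = 0.605), in preCFU-E minus preMegE 0.272 (adjusted p = 1) and in preCFU-E minus HSC -0.143 (adjusted p = 0.901).

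Mdm2, the ubiquitin ligase of p53, varied little. It stood at 76.2, 69 and 73.5 CPM in HSC WT, 93.4, 92.5 and 96.1 in preMegE WT, and 85.3, 87 and 96.3 in preCFU-E WT. The first step was called (log2 0.37, SE 0.13, adjusted p = 0.0241) and the second was not (-0.07, SE 0.13, adjusted p = 0.744). The first call did not hold without HSC WT 2 (adjusted p = 0.0689). On protein-coding transcripts alone it turned to -0.255 (adjusted p = 0.31). That count moved the genes shared with the main test by a median of -0.452 at this step. A transcript annotated for nonsense-mediated decay, Mdm2-209, held 24.7%, 18.9% and 24.1% of Mdm2 TPM in HSC WT and 43.8%, 41.9% and 33.3% in preMegE WT. The part of Mdm2-209 in the turn was not tested. In KO, Mdm2 was at 53.9, 72.6 and 75.2 CPM in HSC, 90.4, 107 and 103 in preMegE and 89.8, 92.5 and 92.6 in preCFU-E. The KO differences were -0.12, 0.09 and 0.03 on the log2 scale (SE 0.13 each, adjusted p 0.752, 1 and 1). Between populations the knockout effect on Mdm2 differed by 0.211, -0.059 and 0.152 in the same order of comparisons as for Trp53 (adjusted p 0.836, 1 and 0.881).

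Mdm4, the second inhibitor of p53, was at 253, 264 and 275 CPM in HSC WT, 222, 205 and 213 in preMegE WT, and 244, 259 and 258 in preCFU-E WT. The preMegE libraries were the lowest and overlapped neither neighbour. The first step was called lower (log2 -0.31, SE 0.11, adjusted p = 0.0258), but leaving out any of the 6 libraries compared ended the call (adjusted p 0.0531 to 0.123), as did the fit of the compared libraries alone. The second step was not called (0.25, SE 0.11, adjusted p = 0.109), although DESeq2 and limma voom with 1 weight per population called it higher (adjusted p 0.0342 and 0.0237). In KO, Mdm4 was at 280, 282 and 266 CPM in HSC, 268, 211 and 214 in preMegE, and 219, 233 and 239 in preCFU-E. All preCFU-E KO values lay below WT, by -0.14 on the log2 scale (SE 0.11, adjusted p = 1). The differences in HSC and preMegE were 0.06 and 0.11 (SE 0.11 each, adjusted p 0.861 and 1). The knockout effect on Mdm4 differed by 0.051 for preMegE minus HSC, -0.254 for preCFU-E minus preMegE and -0.203 for preCFU-E minus HSC (adjusted p 0.974, 1 and 0.786).

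**Figure D3:**
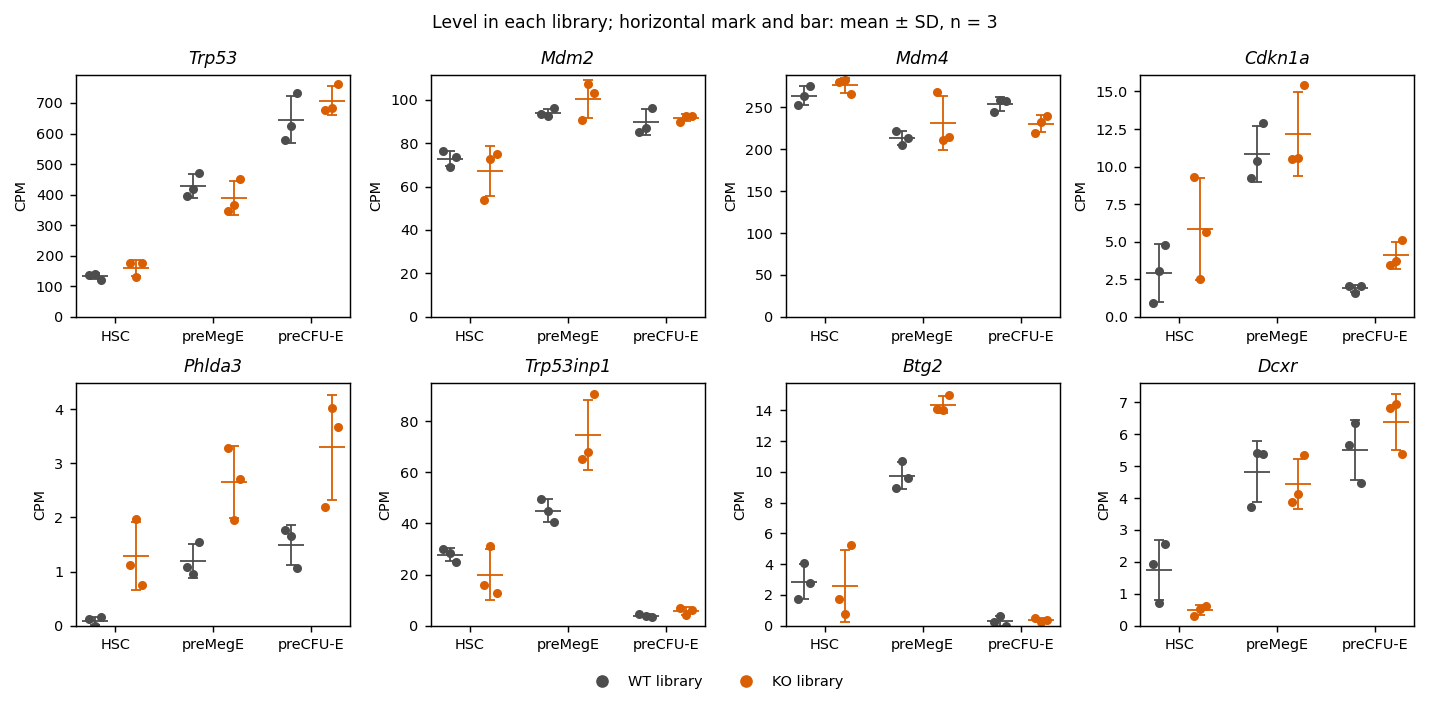
CPM (y axis, from 0) in each library of 8 members by population and genotype, with mean ± SD of 3 libraries. Trp53 climbs from HSC to preCFU-E, Cdkn1a, Btg2 and Trp53inp1 are highest in preMegE, and all Phlda3 KO points lie above the WT points of the same population.

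Among the cell cycle genes, the arrest genes Cdkn1a and Btg2 peaked in preMegE. Cdkn1a was at 0.913, 3.03 and 4.78 CPM in HSC WT, 9.25, 10.4 and 12.9 in preMegE WT, and 2.03, 1.61 and 2.06 in preCFU-E WT. The preMegE libraries stood above all others. Cdkn1a rose at the first step (log2 1.91, SE 0.46, adjusted p = 0.00184) and fell at the second (-2.51, SE 0.48, adjusted p = 0.000382). The KO libraries held 9.33, 2.54 and 5.62 CPM in HSC, 10.5, 10.6 and 15.4 in preMegE, and 3.48, 3.72 and 5.13 in preCFU-E. All preCFU-E KO values lay above WT, whereas HSC and preMegE overlapped. The differences of 1.02 (SE 0.46, adjusted p = 0.321) in HSC and 1.11 (SE 0.47, adjusted p = 1) in preCFU-E had unadjusted p of 0.0365 and 0.0284, and that of preMegE was 0.17 (SE 0.44, adjusted p = 1). The knockout effect on Cdkn1a differed by -0.848 for preMegE minus HSC, 0.943 for preCFU-E minus preMegE and 0.096 for preCFU-E minus HSC (adjusted p 0.789, 1 and 1).

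Btg2, an anti-proliferative gene, was at 1.75, 4.07 and 2.77 CPM in HSC WT, 8.93, 10.7 and 9.61 in preMegE WT, and 0.235, 0.624 and 0 in preCFU-E WT. It rose at the first step (log2 1.77, SE 0.55, adjusted p = 0.0105), a call lost on protein-coding transcripts alone (1.30, adjusted p = 0.071). It has 1 annotated transcript, which is protein-coding, and its fold moved with the median of all genes given above. It then fell to 0 to 12 reads per library (-5.00, SE 0.68, adjusted p = 9.53e-06). In preMegE KO it stood at 14.1, 14 and 15 CPM, above every WT library, with a log2 difference of 0.56 (SE 0.53, adjusted p = 1). Btg2 overlapped WT in HSC KO (1.73, 0.789 and 5.22 CPM) and preCFU-E KO (0.497, 0.24 and 0.374).

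Ccng1, the gene of cyclin G1, rose at the first step, from 98.1, 68.2 and 81.8 CPM in HSC WT to 186, 198 and 224 in preMegE WT (log2 1.30, SE 0.20, adjusted p = 2.08e-05). It rose further to 259, 302 and 361 in preCFU-E WT (0.60, SE 0.20, adjusted p = 0.0271). The second call was lost without any 1 of the libraries compared except preMegE WT 3 (adjusted p up to 0.17), and on protein-coding transcripts alone (0.357, adjusted p = 0.122). In preMegE KO it was at 170, 290 and 285 CPM, on both sides of WT. HSC KO (71.6, 54 and 88.4 CPM) and preCFU-E KO (315, 328 and 379) overlapped WT.

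The polo-like kinase gene Plk2 fell at the first step, from 4.83, 2.41 and 4.89 CPM in HSC WT to 0.0404, 0.147 and 0.377 in preMegE WT (log2 -4.42, SE 0.92, adjusted p = 0.000493). Its preMegE WT libraries held 1 to 8 reads. In HSC KO it was at 3, 0.263 and 0.398 CPM, overlapping WT in 1 library (-1.71, SE 0.78, adjusted p = 0.339). Without that library, HSC KO 1, the difference was -3.59 and passed (adjusted p = 0.0368). That fit called 395 genes in all in HSC KO, against 182 in the main test. Plk2 was at 0.164, 0.131 and 0.307 CPM in preMegE KO and at 0 to 0.107 in the 6 preCFU-E libraries. Plk3 was not called in any comparison and ranged from 0 to 4.05 CPM.

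The start site in use for Cdkn1a could be read from its transcripts. Cdkn1a-202 begins at chr17:29090979, the upstream start that follows the full site printed above, and Cdkn1a-201 begins 2793 bases after the first annotated base of the gene, at 29093769. Cdkn1a-202 held 84.3%, 83.4% and 85.5% of Cdkn1a TPM in preMegE WT and 76.5%, 84.8% and 84.2% in preCFU-E WT. In KO the shares were 87.7%, 82.2% and 81.9% in preMegE and 82.8%, 88.3% and 81.6% in preCFU-E, overlapping WT in both. In HSC WT they were 0%, 0% and 19.1%, on 24, 64 and 95 reads of the gene, with most of the TPM given to Cdkn1a-203, which begins further downstream. In HSC KO they were 41.1%, 0% and 55.6%, on 264, 58 and 127 reads, above WT in 2 libraries and at 0 in the other. The difference in transcript shares between WT preMegE and WT HSC did not pass (adjusted p = 0.12), except without HSC WT 3, the HSC WT library that held Cdkn1a-202 (adjusted p = 0.0138). Between HSC KO and WT it did not pass (adjusted p = 0.993), nor in any fit that left out a library (adjusted p from 0.096). These shares come from an estimate that divides reads shared between transcripts, and the counts in HSC were small.

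**Figure D4:**
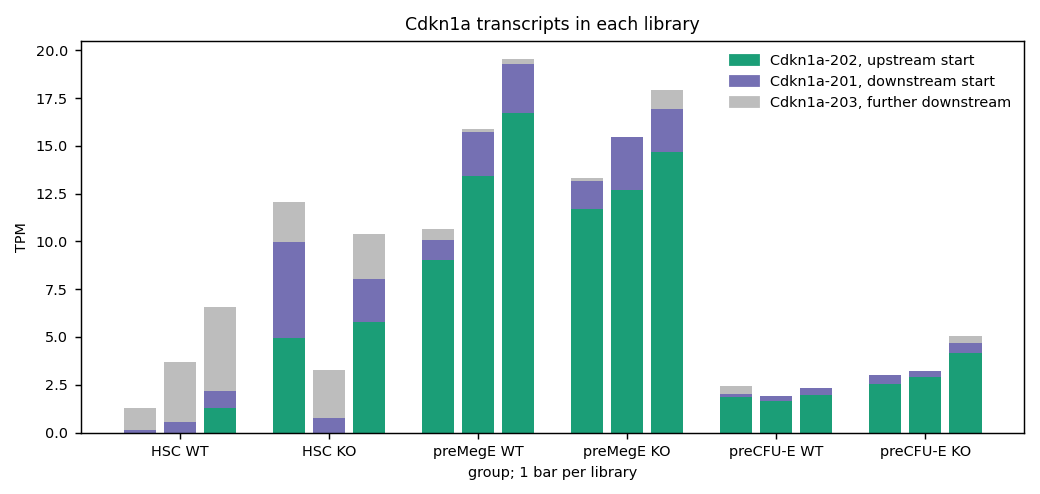
TPM (y axis, from 0) of 3 Cdkn1a transcripts stacked in each of the 18 libraries, 1 bar per library. The transcript of the upstream start makes up most of each bar in preMegE and preCFU-E, in WT and KO, while the HSC bars hold larger shares of the others, with none of the upstream transcript in 3 of 6 libraries.

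Of the 10 cell death genes, 5 rose at the first WT step and none fell, and at the second 2 rose and 1 fell. Beside these, 25.5% of all genes rose and 28.2% fell at the first step, and 15.6% and 11.2% at the second. Apaf1, the scaffold of the apoptosome, went from 36.8, 24.2 and 26.2 CPM in HSC WT to 85.1, 78.7 and 79.9 in preMegE WT (log2 1.48, SE 0.18, adjusted p = 1.3e-06). All preMegE values lay above all HSC values. It stood at 61.7, 64.5 and 64.1 CPM in preCFU-E WT (-0.36, SE 0.18, adjusted p = 0.156). All KO values lay above WT in preMegE (88.7, 89.4 and 96.2) and in preCFU-E (72, 67.8 and 70), by 0.17 and 0.14 on the log2 scale (SE 0.18 each, adjusted p = 1 in both). In HSC KO it was at 39.8, 21.7 and 34.1 CPM, on both sides of WT.

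Aen, a nuclease that takes part in apoptosis, rose from 12.9, 8.94 and 7.4 CPM in HSC WT to 27, 35.7 and 47.2 in preMegE WT (log2 1.90, SE 0.29, adjusted p = 1.84e-05). In preCFU-E WT it was at 58.6, 70 and 71.7 CPM (0.87, SE 0.28, adjusted p = 0.0235). The populations did not overlap, but the second call held only without preMegE WT 3 among the 6 fits that left out a library (adjusted p up to 0.183), and not on protein-coding transcripts (0.628, adjusted p = 0.0738). In KO, Aen was at 13.4, 5.04 and 14.1 CPM in HSC, 26.7, 35.1 and 30.7 in preMegE, and 63.4, 67.2 and 76.9 in preCFU-E, overlapping WT throughout. By TPM, all HSC KO values of Aen (8.04, 8.11 and 10.8) lay above WT (5.96, 3.56 and 4.2). All preCFU-E KO values (19, 17.2 and 23.1 TPM) lay below WT (23.3, 25.7 and 24.4), and preMegE overlapped. TPM levels were not tested. Ei24, an endoplasmic reticulum protein gene, was at 21.9, 16.9 and 20.4 CPM in HSC WT, 36.2, 39.6 and 42 in preMegE WT, and 62.5, 72.1 and 69.6 in preCFU-E WT. It rose by 0.99 (SE 0.21, adjusted p = 0.000558) and then by 0.79 (SE 0.21, adjusted p = 0.00596). The second call was lost without preMegE WT 1 (adjusted p = 0.057). In KO, Ei24 was at 24.3, 11.7 and 21.3 CPM in HSC, 29, 43.2 and 35.2 in preMegE, and 61.2, 72.2 and 69.5 in preCFU-E, again overlapping WT.

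Pidd1, which assembles the caspase-2 complex, rose from 9.67, 9.7 and 11.4 CPM in HSC WT to 16, 17.3 and 17.3 in preMegE WT (log2 0.72, SE 0.22, adjusted p = 0.00999). The call was lost with counts scaled for transcript length (0.172, adjusted p = 0.741). In KO it overlapped WT in HSC (7.42, 13.3 and 10.6 CPM) and preMegE (22.1, 15.2 and 17.5). In preCFU-E, all KO values (22.6, 22.4 and 26.5 CPM) lay above WT (21.5, 20.6 and 16.7), with a difference of 0.28 (SE 0.22, adjusted p = 1).

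Trp53inp1, a stress-induced partner of p53 with a role in autophagy, had the widest course of the death genes. It was at 29.8, 28.4 and 25 CPM in HSC WT, 49.7, 44.8 and 40.5 in preMegE WT, and 4.54, 3.85 and 3.2 in preCFU-E WT. The 3 populations did not overlap. It rose by 0.70 (SE 0.25, adjusted p = 0.0254) and then fell by 3.53 on the log2 scale (SE 0.29, adjusted p = 7.99e-09). The rise was lost without HSC WT 3, preMegE WT 1 or preMegE WT 2 (adjusted p 0.0695, 0.0666 and 0.054), and with counts scaled for length or limited to protein-coding transcripts. In KO it was at 15.8, 31.2 and 12.9 CPM in HSC, 65.2, 67.9 and 90.4 in preMegE, and 6.95, 4.2 and 6.19 in preCFU-E. PreMegE KO lay wholly above WT (0.73, SE 0.25, unadjusted p = 0.0086, adjusted p = 0.835), and 2 of 3 HSC KO libraries lay below WT (-0.48, SE 0.25, adjusted p = 0.424). Without the third, HSC KO 2, the HSC difference was -0.951 and passed (adjusted p = 0.0303). That fit called 222 genes in all in HSC KO, against 182 in the main test. The knockout effect in preMegE minus that in HSC was 1.21 (SE 0.36), with an unadjusted p of 0.00287 and an adjusted p of 0.316. Without HSC KO 2, this difference and that between preCFU-E and HSC passed. There 34 and 22 genes were called in all, against 7 and 11 in the main test. Markers moved in preMegE too: 10 megakaryocyte genes summed to 350 to 369 CPM in KO and 438 to 555 in WT, and their part in the difference was not tested.

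The classical death genes were low. Bbc3, which codes for Puma, ranged from 0.213 to 1.97 CPM over all libraries, Pmaip1 from 0 to 1.96, Fas from 0 to 3.9 and Perp from 0.0877 to 3.75. Tnfrsf10b, a death receptor gene, ranged from 4.54 to 11.7 CPM. None of these 5 was called between genotypes or at a WT step in the main test. Tnfrsf10b missed the threshold at the first step (log2 -0.63, adjusted p = 0.0529) and passed it with DESeq2, RLE factors, limma voom, the stricter low-count filter, protein-coding transcripts alone and the replicate block (-0.64 to -1.06, adjusted p 0.00973 to 0.0489). Pmaip1 passed there with limma voom (2.19, adjusted p = 0.0431) and without HSC WT 2 (3.38, adjusted p = 0.0113), against 0.51 and an adjusted p of 0.654 in the main test. At the second step the fit of the compared libraries alone called Pmaip1 and Perp, and limma voom with 1 weight per population also called Pmaip1. Fas in preCFU-E was below WT in every KO library, at 0, 0.06 and 0.107 CPM against 0.235, 0.156 and 0.284, levels of a few reads.

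Phlda3 stood apart from the other members in its order by genotype. In HSC it was at 0.114, 0 and 0.151 CPM in WT, on 3, 0 and 3 reads, and at 1.13, 1.97 and 0.752 in KO, on 32, 45 and 17 reads. Summed over the group, the KO level was 14.3 times that of WT, with an exact 95% interval of 6.33 to 39.9 that covers counting error only. The fitted log2 difference was 3.77 (SE 0.66, adjusted p = 0.00957). It passed with any 1 library left out (adjusted p up to 0.0343). It did not pass in the HSC-only fit (adjusted p = 0.701) or in limma voom with 1 weight per population (adjusted p = 0.494). Markers differed in HSC too. The 10 HSC genes summed to 856 to 1200 CPM in KO and 1230 to 1270 in WT, with 7 on the lower side, and the 12 erythroid genes to 256 to 355 and 392 to 467, with 9 on the lower side. No gene of either list was called or at 0 in all HSC libraries. Of the 8 tested endothelial and stromal genes, Cxcl12 was called lower (log2 -3.98, SE 0.86, adjusted p = 0.0323), and that list summed to 51.9 to 57.2 CPM in KO and 55.3 to 102 in WT. The part of these markers in the HSC calls of Phlda3 and Dcxr was not tested.

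In preMegE, Phlda3 was at 1.09, 0.955 and 1.55 CPM in WT and 3.28, 1.96 and 2.72 in KO (log2 1.15, SE 0.52, unadjusted p = 0.0374, adjusted p = 0.966). In preCFU-E it was at 1.76, 1.66 and 1.07 CPM in WT and 2.2, 4.02 and 3.68 in KO (1.13, SE 0.52, unadjusted p = 0.0395, adjusted p = 1). KO lay above WT without overlap in all 3 populations, which share no library. This held for 20 of all genes tested (0.0927%) and for 1 of the 30 members, and it was counted after the values had been seen. Among WT groups, Phlda3 rose from HSC to preMegE (3.67, SE 0.66, adjusted p = 0.000116) and did not pass at the second step (0.33, SE 0.52, adjusted p = 0.693).

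Zmat3, an RNA-binding zinc finger protein gene, rose from 24.8, 17.2 and 23.2 CPM in HSC WT to 63.9, 75.6 and 70.4 in preMegE WT (log2 1.69, SE 0.18, adjusted p = 2.28e-07). It was at 97.1, 123 and 90.5 CPM in preCFU-E WT (0.57, SE 0.18, adjusted p = 0.0192), a call that was lost without preMegE WT 1, preMegE WT 3, preCFU-E WT 1 or preCFU-E WT 2 (adjusted p up to 0.229) and on protein-coding transcripts alone (0.34, adjusted p = 0.178). In preMegE KO it was at 76.7, 110 and 120 CPM, above every WT library (0.54, SE 0.18). HSC KO (23.2, 18.1 and 23.1 CPM) and preCFU-E KO (96, 99.7 and 110) overlapped WT. The preMegE difference had the lowest unadjusted p of the members in that population, 0.00545, with an adjusted p of 0.775. Triap1, an apoptosis inhibitor gene, rose from 5.06, 5.63 and 4.08 CPM in HSC WT to 9.05, 9.19 and 9.33 in preMegE WT (0.90, SE 0.30, adjusted p = 0.016). In HSC KO it was at 3.85, 1.89 and 2.43 CPM, below every WT library (-0.85, SE 0.31, adjusted p = 0.207). The rise was lost on protein-coding transcripts alone (0.426, adjusted p = 0.239), in step with the median of all genes, and with 1 weight per population (0.902, adjusted p = 0.0566). Triap1 was at 13.4, 13.4 and 14.9 CPM in preCFU-E WT, 5.31, 10.5 and 11.2 in preMegE KO and 12.8, 14.8 and 19.2 in preCFU-E KO.

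The DNA repair genes were split at the first WT step. Xpc, which recognises damage for nucleotide excision repair, rose from 17.7, 21.9 and 25 CPM in HSC WT to 34.8, 40 and 40.4 in preMegE WT (log2 0.84, SE 0.20, adjusted p = 0.00194) and fell to 23.2, 22.1 and 22.1 in preCFU-E WT (-0.77, SE 0.20, adjusted p = 0.00636). The rise of Xpc was lost on protein-coding transcripts alone (0.414, adjusted p = 0.0862). In KO, Xpc was at 22.8, 13.9 and 28.1 CPM in HSC, 41.4, 35.6 and 40.8 in preMegE, and 24.6, 22.2 and 22.7 in preCFU-E, overlapping WT in each. Polk, a translesion polymerase gene, fell from 31.7, 44 and 41.3 CPM in HSC WT to 25.9, 23 and 25.6 in preMegE WT (-0.65, SE 0.18, adjusted p = 0.00574), a call lost with counts scaled for length (-0.417, adjusted p = 0.0842). It was at 23.3, 33.7 and 34.8 CPM in HSC KO, 20.1, 15.7 and 19.3 in preCFU-E WT and 22.4, 19.8 and 19.9 in preCFU-E KO. In preMegE KO all Polk values (32.3, 30 and 27.3 CPM) lay above WT, by 0.27 (SE 0.18, adjusted p = 1). Ddb2, a partner of Xpc in excision repair, fell from 12.4, 12.7 and 10 CPM to 8.2, 6.25 and 4.66 (-0.88, SE 0.29, adjusted p = 0.0166). That call was lost without preMegE WT 2 (adjusted p = 0.0565) or preMegE WT 3 (adjusted p = 0.107), with no low-count filter (adjusted p = 0.0574), with counts scaled for length (-0.433, adjusted p = 0.274) and on protein-coding transcripts alone (-1.37, adjusted p = 0.114). Ddb2 was at 8.1, 10.1 and 8.03 CPM in preCFU-E WT, and in KO at 11.3, 6.58 and 10.2 in HSC, 5.97, 3.53 and 3.91 in preMegE, and 8.23, 5.94 and 6.09 in preCFU-E. Ddb2 overlaps Acp2 on the other strand, and the library kit is not stated to keep strand, so reads of the overlap cannot be told apart. Genes on the other strand also overlap Mdm4, Cdkn1a, Plk3, Apaf1, Ei24, Polk, Rrm2b and Tigar. Fas, Rrm2b, Sesn1, Sesn2 and Ephx1 are overlapped by a gene on their own strand. Rrm2b, the p53-induced ribonucleotide reductase subunit gene, was not called in any comparison of the main test. On protein-coding transcripts alone Rrm2b was called lower at the first step (-0.635, adjusted p = 0.0307, against -0.29 and 0.217). That count moved the genes shared with the main test by a median of -0.452, a larger shift than that of Rrm2b. Its preCFU-E KO values (16.5, 17.8 and 17.5 CPM) lay below WT (19.9, 20.7 and 20.8), by -0.24 (SE 0.20, adjusted p = 1).

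Among the genes of metabolism and stress, Dcxr was the only one called between genotypes. It was at 1.94, 0.709 and 2.57 CPM in HSC WT and 0.318, 0.526 and 0.619 in HSC KO, on 9 to 14 reads per KO library. The groups did not overlap (log2 -1.84, SE 0.44, adjusted p = 0.0474). The call was lost without HSC WT 1, HSC WT 3, HSC KO 1 or HSC KO 2 (adjusted p 0.101, 0.16, 0.0993 and 0.0669) and in the HSC-only fit (0.797). The differences were -0.12 (SE 0.38) in preMegE and 0.21 (SE 0.38) in preCFU-E, with adjusted p of 1. From HSC to preMegE, Dcxr rose in WT to 3.72, 5.4 and 5.37 CPM (1.47, SE 0.40, adjusted p = 0.00426), a call lost on protein-coding transcripts alone (1.79, adjusted p = 0.063). It was at 3.89, 4.12 and 5.35 CPM in preMegE KO, 5.67, 6.35 and 4.48 in preCFU-E WT, and 6.81, 6.96 and 5.39 in preCFU-E KO.

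Sesn1, a sestrin gene that restrains mTORC1, fell from 66.3, 74.8 and 54.9 CPM in HSC WT to 41.4, 48.7 and 40 in preMegE WT (log2 -0.59, SE 0.15, adjusted p = 0.00295). In HSC KO it was at 45, 56.2 and 49 CPM, overlapping WT in 1 library (-0.39, SE 0.15, adjusted p = 0.255). Sesn1 was at 48.2, 41.4 and 45.1 CPM in preMegE KO, 31, 33.3 and 36 in preCFU-E WT, and 38.7, 35.9 and 33.1 in preCFU-E KO. Ephx1, an epoxide hydrolase gene, fell from 0.304, 1.42 and 4.53 CPM to 0.121, 0.22 and 0.141 (-3.63, SE 0.96, adjusted p = 0.00372). The call rested on HSC WT 3, without which it was -2.31 (adjusted p = 0.0522), and in HSC WT 3 endothelial and stromal markers summed to 102 CPM against 51.9 to 59.6 in the other HSC libraries. HSC KO 1, the library with the highest Ephx1 (8.91 CPM), had the lowest HSC sum of those markers, 51.9 CPM. Whether those markers play a part was not tested. Ephx1 was at 8.91, 1.45 and 0.884 CPM in HSC KO, 0.109, 0.131 and 0.219 in preMegE KO, and 0 to 0.0709 in the 6 preCFU-E libraries. Sesn2 (1.11 to 12.2 CPM) and Tigar (0.132 to 3.45 CPM) were not called in any comparison.

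Transcript shares were tested for 23 members. In HSC KO, Ei24 was called (adjusted p = 0.021), where 3.29% of 11652 genes were. Its main transcript, Ei24-201, held 61%, 74.6% and 79.3% of the TPM in WT and 74.7%, 68.9% and 77.3% in KO. Ei24-202 held 6.38%, 2.91% and 0% in WT and 0% in each KO library, so the groups overlapped. The call was lost in the HSC-only fit (adjusted p = 0.865), with a 10% share minimum and in the replicate block. It held without HSC WT 2 or HSC WT 3 and was lost without any other HSC library (adjusted p 0.0531 to 0.117). Leaving out HSC KO 1, 2 or 3 called another member in its place, Apaf1, Trp53inp1 and Aen in turn (adjusted p 3.1e-06, 0.039 and 0.0161). Those 3 fits called 434, 389 and 481 genes in all, against 383 in the main test. No member was called in preMegE KO (0.112% of genes) or preCFU-E KO (0.206%). From WT HSC to WT preMegE, Ddb2 was called (adjusted p = 0.0486) beside 7.45% of genes. Its protein-coding Ddb2-201 held 8.66%, 39.1% and 8.07% in HSC WT and 44.9%, 31.4% and 37.6% in preMegE WT, overlapping in 1 library. That call was lost in each of the 6 fits that left out a library (adjusted p 0.0913 to 0.158), of which 1 called Cdkn1a instead. No member was called at the second step (0.112% of genes).

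Cassette exons could be tested in 7 members, 15 exons in all: Mdm2, Mdm4, Aen, Dcxr, Polk, Rrm2b and Xpc. A call needed an adjusted p below 0.05 and a shift of at least 10 percentage points in the share of TPM from transcripts that include the exon. None of the 15 was called in HSC KO, preMegE KO or preCFU-E KO, where 1.32%, 0.174% and 0.733% of 8050 exons were, nor at the WT steps (10.9% and 0.0248%). In preMegE WT the share of a 487-base exon of Aen (chr7:78902344-78902830) was 77.3%, 77.6% and 79.1%, and in HSC WT 46.3%, 28.8% and 65.1%. The groups did not overlap, and the difference of 31.3 points had an adjusted p of 0.0666. In HSC KO the Aen exon stood at 57.9%, 90.7% and 77.4%, overlapping WT in 1 library (28.6 points, adjusted p = 0.166).

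The Mdm4 exon is shown because its inclusion decides whether full-length Mdm4 is made. Exon 6 of Mdm4-206 (chr1:133004654-133004721, GRCm38, minus strand) is 68 bases long, not a multiple of 3, so skipping shifts the reading frame, and the skipped form is known as the short form of Mdm4. It is printed in capitals between 15 bases of each neighbouring exon, followed by the junction formed when it is skipped.
Mdm4, exon included: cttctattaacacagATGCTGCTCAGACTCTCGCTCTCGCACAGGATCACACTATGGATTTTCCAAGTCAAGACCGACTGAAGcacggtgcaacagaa
Mdm4, exon skipped: cttctattaacacagcacggtgcaacagaa
Its inclusion was 93.4%, 95.4% and 92.7% in HSC WT and 99.5%, 100% and 100% in HSC KO. All KO libraries lay above all WT libraries, by 5.98 points, under the 10-point minimum (limma, adjusted p = 0.0054). The difference had an adjusted p of 0.534 in the HSC-only fit and of 0.0555 with a larger offset on the logit scale. In preMegE, inclusion was 90.6%, 89.3% and 93.5% in WT and 96.3%, 91% and 90.1% in KO (1.3 points). In preCFU-E it was 88.3%, 89% and 90.8% in WT and 88.8%, 88.3% and 90.7% in KO (-0.0791 points). Both had an adjusted p of 1, and WT and KO overlapped.

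**Figure D5:**
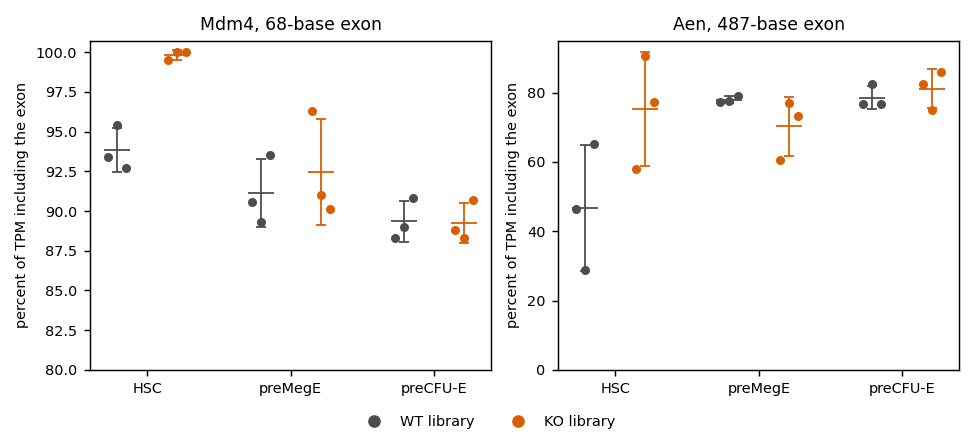
Share of TPM from transcripts that include the 68-base exon of Mdm4 (left, y axis from 80) and the 487-base exon of Aen (right, y axis from 0), by population and genotype, with mean ± SD of 3 libraries. The 3 HSC KO points of Mdm4 lie at 99.5 to 100, above the WT points at 92.7 to 95.4, and 2 of the 3 Aen points of HSC WT are the lowest of their panel.

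Other genes of the pathway were counted from 3 lists. Of 22 genes that act before p53 (kinases such as Chek2, acetyltransferases and ubiquitin ligases), 19 were tested. Of 9 ribosomal proteins known to bind Mdm2, all were tested, and of 34 further targets of p53, 33 were. No gene of the 3 lists was called in KO in any population. Of all genes, 0.385% were called higher and 0.459% lower in HSC KO. In preMegE KO and preCFU-E KO, 0.0603% and 0.153% were called in either direction. Their median log2 differences in HSC KO, preMegE KO and preCFU-E KO were -0.17, -0.09 and -0.04 for the upstream genes, 0.09, 0.20 and 0.07 for the ribosomal proteins, and -0.04, 0.00 and 0.16 for the further targets.

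From WT HSC to WT preMegE, 15 upstream genes rose and 1 fell, all 9 ribosomal proteins rose, and 11 further targets rose and 9 fell. Of all genes, 25.5% rose and 28.2% fell at this step. The upstream genes with the lowest adjusted p were Brd7 (log2 1.20, SE 0.14), Chek2 (1.19, SE 0.18), Daxx (2.05, SE 0.32) and Kat5 (1.26, SE 0.20). Among the ribosomal proteins they were Rps7 (1.63, SE 0.12), Rps3 (1.67, SE 0.12), Rps14 (2.01, SE 0.15) and Rpl23 (1.52, SE 0.13). Among the further targets they were Prkab1 (2.87, SE 0.19), Gpx1 (1.73, SE 0.14), Steap3 (4.40, SE 0.35) and Shisa5 (-1.22, SE 0.13), with edgeR adjusted p of 3.16e-10 for Prkab1 and 2.09e-07 for Shisa5. Summed, the 9 ribosomal proteins went from 912 to 989 CPM in HSC WT to 2630 to 2680 in preMegE WT. Their sums in KO were 995 to 1030 CPM in HSC, 2680 to 3040 in preMegE and 3460 to 3860 in preCFU-E.

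From WT preMegE to WT preCFU-E, 6 upstream genes rose and 1 fell, 5 ribosomal proteins rose, and 5 further targets rose and 6 fell. Of all genes, 15.6% rose and 11.2% fell at this step. Usp7, which removes ubiquitin from Mdm2 and p53, rose (log2 0.97, SE 0.15, edgeR adjusted p = 4.88e-05), as did the damage kinase Atr (0.90, SE 0.15, adjusted p = 6.62e-05), and Hipk2, a kinase of p53, fell (-0.93, SE 0.13, adjusted p = 1.31e-05). Rps27l, a ribosomal protein that is itself a p53 target, rose by 1.19 (SE 0.19, adjusted p = 5.33e-05). Of the further targets, Trp53i11 (-2.76, SE 0.38) and Thbs1 (-5.09, SE 1.04) fell and Gtse1 (1.35, SE 0.29) and Steap3 (1.22, SE 0.29) rose.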

How the data were processed

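Per the submitters' processing notes, reads were quantified with Salmon 0.12.0 against mouse mm10 (GRCm38.p6). Per the file headers, the authors deposited estimated counts and TPM per transcript for 18 libraries; whether strand was used is not given in the sources used here. Gene counts were the estimated counts summed through GENCODE M21 (136176 of 136288 transcripts matched, the others holding at most 0.084% of reads) and rounded. edgeR 4.0.16 (TMM, filterByExpr, robust quasi-likelihood) was fitted to 6 group means with 12 residual degrees of freedom, and p-values were adjusted by Benjamini-Hochberg over 21565 genes. An SE is the log2 change divided by the root of the F statistic. Transcript shares were tested with edgeR's diffSpliceDGE on transcripts with at least 5% of a gene's TPM, in genes past the count filter. Cassette exon shares were computed from deposited TPM (at least 5 TPM, mean share 2 to 98%) and tested with limma 3.58.1 on a logit scale with an offset of 0.01. DESeq2 1.42.0 and limma voom were alternatives. Scripts were tested on simulated data.

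Members and lists were chosen with earlier results of these data known. All 31 members are accounted for. Each called member is given with every library's value (Plk2 and Ephx1 in preCFU-E by their range), and Trp53, Mdm2, Mdm4 and Cdkn1a in every comparison, with at most 4 called genes per other list by adjusted p. Replicates are described as biological, and nothing says which animals they came from. Same-numbered WT and KO libraries did not deviate together (correlations -0.0381 to 0.143), so numbers were not taken to pair them.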

Additional observations from a re-analysis of the deposited data

How the results depend on the processing

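The HSC KO count of 2 members became 1 with RLE factors, limma voom, protein-coding transcripts or the replicate block, and 0 in the fit of HSC libraries alone or in limma voom with 1 weight per population, the last added after the data had been seen because the spread differs between populations. It was 1 to 2 when single libraries were left out, with Phlda3 in all 6 fits and Dcxr in 2, joined by Plk2 without HSC KO 1 and by Trp53inp1 without HSC KO 2. All genes called in HSC KO ran from 89 to 595 in those 6 fits, against 182 in the main test. They were 5 with HSC libraries alone and 3 with population weights. In preMegE KO and preCFU-E KO the member count was 0 under every alternative, where all genes called ran from 4 to 59 and from 14 to 252. From WT HSC to WT preMegE the member count was 16 to 22 over the alternatives, against 21. All genes called there ran from 7021 to 12099, against 11571. From WT preMegE to WT preCFU-E the 9 members became 14 in the fit of the compared libraries alone, 15 with population weights, and 5 to 8 with single libraries left out. In the same fits all genes called went from 5779 to 7692, to 8110, and to 3969 to 5058. Of the differences in knockout effect, DESeq2 called 1 member (Dcxr) for preCFU-E against HSC, and leaving out single libraries gave 0 to 1 (Trp53inp1, without HSC KO 2) there and for preMegE against HSC. For preCFU-E against HSC, DESeq2 called 122 genes in all and the fit without HSC KO 2 called 22, against 11. For preMegE against HSC the fit without HSC KO 2 called 34, against 7. The call of changed transcript shares in HSC KO became 0 with a 10% share minimum, the replicate block, or HSC libraries alone, and 0 to 1 with libraries left out, where Ei24 was called in 2 of 6 fits and Apaf1, Trp53inp1 or Aen in the 3 without an HSC KO library. All genes called in those 6 fits ran from 320 to 481, against 383. The transcript share call of Ddb2 at the first WT step became 0 with a 10% minimum or the replicate block, and 0 to 1 with libraries left out, the 1 being Cdkn1a. Cassette exon counts of 0 became 1 at that step with an offset of 0.05 (Aen), and 0 to 1 with libraries left out there, in HSC KO and in preCFU-E KO. Mdm2 at the first WT step turned from 0.37 to -0.255 on protein-coding transcripts. The replicate block adds the replicate number over all 18 libraries and does not pair WT with KO within a population. With this block the other counts were 0 for preMegE KO and preCFU-E KO, and 22 and 9 for the WT steps. They were 0 for each difference in knockout effect and each remaining transcript or exon count. On protein-coding transcripts all genes shifted by a median of -0.452 and -0.225 at the WT steps. The cause of the other changes was not tested. Genes with a few reads per library in some groups limit what the depth can show, such as Phlda3 in HSC WT, Plk2 in preMegE, and Fas and Ephx1 in preCFU-E.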
